A study of Mus musculus with 10 samples.

Results

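The genes described here belong to the epidermal growth factor receptor (EGFR) and ERK pathway and its feedback, with *Phlda1*, in the liver of germ-free (GF) mice given gut microbiota-derived extracellular vesicles (MEV). They were a list of 10 genes chosen by name, 3 receptor tyrosine kinases (*Egfr*, *Erbb3* and *Epha2*) and 7 genes that restrain receptors or their signal (*Errfi1*, *Lrig1*, *Phlda1*, *Dusp6*, *Spry2*, *Spry4* and *Spred1*). Of these, 9 were among the 12148 genes of the count table and all 9 were among the 12147 genes tested, while *Spry2* was not analysed here. The list was drawn up with the MEV against PBS result of these livers known, so the difference between the groups is given for these 9 genes as a description, without a test of its own. Where the test over all genes called any of them, that call describes this choice and is not evidence.

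Whole liver RNA was sequenced from wild-type germ-free C57BL/6 mice, of which 5 received MEV (GF+MEV) and 5 received only PBS (GF+PBS), with 1 library for each mouse. MEV had been purified from cecal content and stool of specific-pathogen-free control mice and were given by mouth, 80 μg in PBS, 2 doses per week for 3 weeks, and the GF+PBS mice received PBS on the same schedule. All mice lacked a microbiota, so no group with resident bacteria was compared. The age, sex, cage and hour of collection of these mice are not given in the sources used here, and the livers came from a single experiment.

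EGFR and ErbB3 bind growth factors of the EGF and neuregulin families at the cell surface, pair with each other or with other ErbB receptors, and signal through the RAS, RAF, MEK and ERK kinases. ERK in turn induces its own brakes, among them phosphatases of the DUSP family and the Sprouty and Spred proteins, while other proteins act on the receptor itself. In liver, EGFR is abundant in hepatocytes and is known for its part in regeneration and lipid metabolism.

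Between 15746119 and 20523649 counts fell on genes in the GF+MEV libraries (median 16770711) and between 16140770 and 19733387 in the GF+PBS libraries (median 17104805). Levels are given as TMM-scaled CPM, a gene's count set against the effective size of its library. No library was a copy of another, by a chi-square per gene on the counts of each pair within a group. On that measure GF+MEV replicate 2 stood apart, at 133 to 175 from the other GF+MEV livers, which were 8.14 to 21.3 from each other. The GF+PBS livers were not evenly spaced either. Over the 500 most variable genes, the root mean square log2 distance was 0.65 between GF+PBS replicates 1 and 3 and 0.562 between replicates 4 and 5. It ran from 0.803 to 1.05 for the other GF+PBS pairs and from 0.806 to 1.09 for GF+MEV pairs. Whether those livers shared a cage or litter is not given, so values with each pair summed into 1 sample are given where they differ. In bulk liver, fewer cells of a type and less RNA per cell cannot be told apart.

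*Epha2*, *Errfi1* and *Egfr* were about 2 to 3 times higher in GF+MEV livers, *Phlda1* was about 8 times lower, and *Spry4* was modestly lower. *Erbb3*, *Lrig1*, *Dusp6* and *Spred1* had log2 differences between -0.25 and 0.12 with overlapping groups. The edgeR test over all genes called 3 of the 9 genes higher and 2 lower at an adjusted p under 0.05, where it called 7.64% of all tested genes, 4.12% higher and 3.52% lower. The groups did not overlap for 2 genes that were higher (*Epha2* and *Errfi1*) and 2 that were lower (*Phlda1* and *Spry4*), where this held for 7.39% of all tested genes, 3.94% higher and 3.45% lower. With the close GF+PBS pairs summed, *Egfr* and *Spry4* were no longer called, and *Spry4* also lost its call in 4 of the fits that left out 1 liver. As the genes were chosen on this same contrast, these counts describe the choice.

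**Figure D1:**
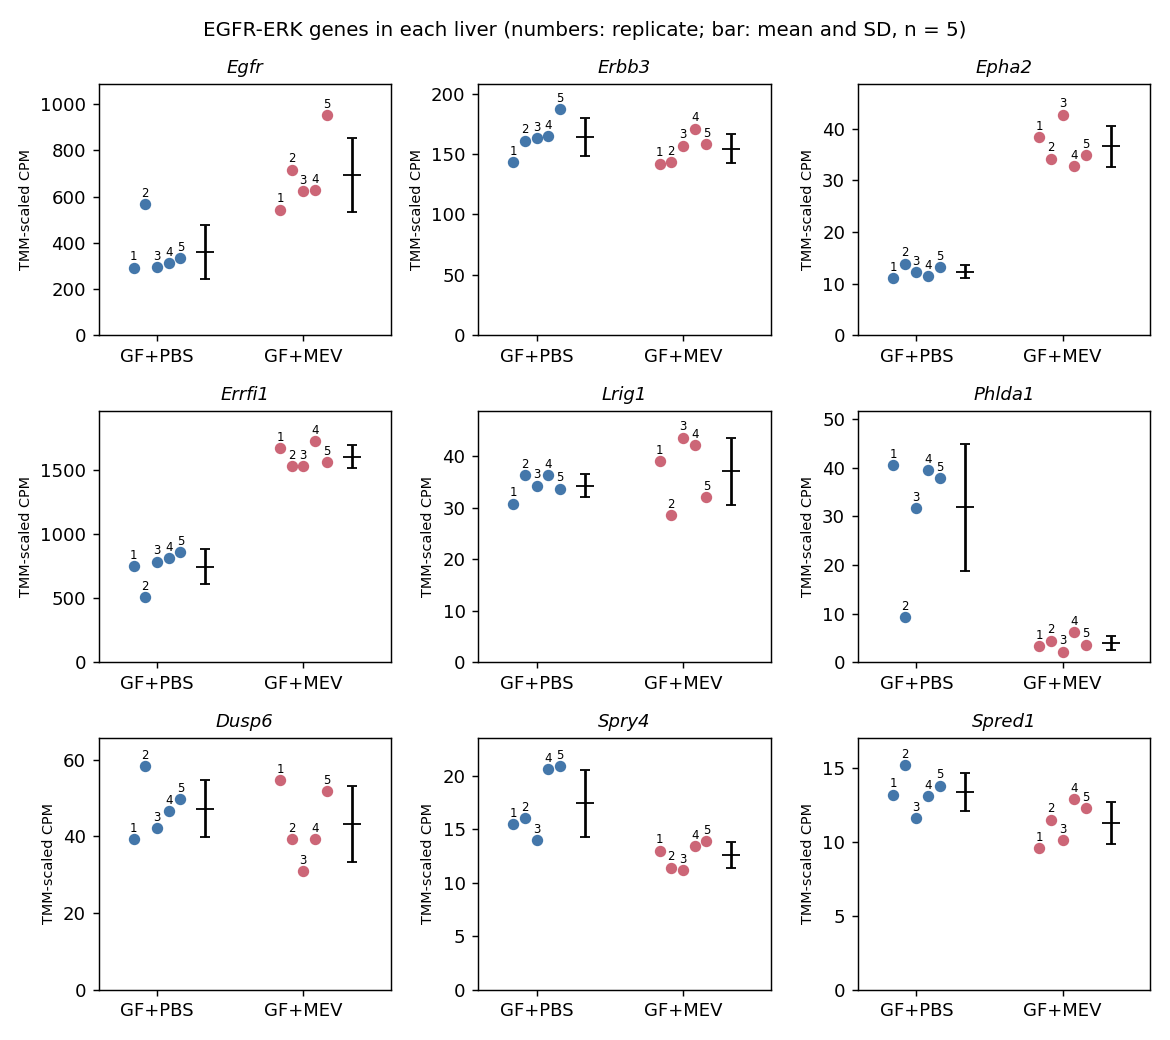
TMM-scaled CPM (y axis, from 0) of 9 EGFR-ERK genes in each liver, GF+PBS in blue and GF+MEV in red, with the replicate number beside each point and the mean and SD (n = 5) as a bar. *Epha2* and *Errfi1* are higher in every GF+MEV liver, *Phlda1* and *Spry4* are lower in every one, and GF+PBS replicate 2 lies away from the other GF+PBS livers for *Egfr* at 568 CPM and for *Phlda1* at 9.36 CPM.

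Of the receptors, *Egfr* (ENSMUSG00000020122, GRCm38 chr11:16752203-16918158, plus strand), which encodes the receptor for EGF and TGF-alpha, was at 544, 717, 624, 628 and 954 CPM in GF+MEV replicates 1 to 5. In GF+PBS replicates 1 to 5 it was at 293, 568, 294, 313 and 335 CPM. The groups overlapped by 1 liver, since GF+PBS replicate 2 was above GF+MEV replicate 1, and the other 4 GF+PBS livers were all below every GF+MEV liver. The means were 693 ± 158 CPM and 361 ± 117 CPM (SD, n = 5 each), a 1.92-fold higher level in GF+MEV and a log2 fold change between the groups of 0.94 (standard error, SE, 0.23). Without GF+PBS replicate 2 the log2 fold change was 1.17, and with GF+PBS replicates 1 and 3, and 4 and 5, summed it was 0.82 and the call was lost. The counts behind these levels ran from 4940 to 14852 per library, so counting error was small beside the spread between livers.

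*Epha2* (ENSMUSG00000006445, GRCm38 chr4:141301240-141329384, plus strand) encodes an ephrin receptor that is itself induced by ERK signalling in many epithelial cells. It was at 38.3, 34.2, 42.7, 32.8 and 34.9 CPM in GF+MEV replicates 1 to 5 and at 11, 13.9, 12.2, 11.4 and 13.2 CPM in GF+PBS replicates 1 to 5. The lowest GF+MEV liver was far above the highest GF+PBS liver, and each group was tight. The means were 36.6 ± 3.98 CPM and 12.3 ± 1.19 CPM (SD, n = 5 each), a 2.97-fold higher level and a log2 difference of 1.57 (SE 0.09), which stayed between 1.51 and 1.62 over all 18 alternative settings tried.

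*Erbb3* (ENSMUSG00000018166, GRCm38 chr10:128567523-128589652, minus strand) encodes a neuregulin receptor with little kinase activity of its own, which signals through its partner receptors. It lay between 142 and 171 CPM in GF+MEV livers and between 143 and 187 CPM in GF+PBS livers. The ranges were nearly the same, with means of 154 ± 12.1 CPM and 164 ± 15.7 CPM (SD, n = 5 each) and a log2 difference of -0.09 (SE 0.08). Its ErbB relatives outside the list were low, *Erbb2* at 1.32 ± 0.395 CPM and 1.38 ± 0.484 CPM and *Erbb4* at 3.27 ± 0.559 CPM and 2.75 ± 0.542 CPM in GF+MEV and GF+PBS (SD, n = 5 each). For neither did the test find a difference (edgeR adjusted p = 0.90 and 0.47).

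Among the inhibitors of the receptor, *Errfi1* (ENSMUSG00000028967, GRCm38 chr4:150853919-150868892, plus strand) encodes MIG6, a feedback protein that binds the EGFR kinase domain and blocks it. It was at 1670, 1530, 1530, 1720 and 1560 CPM in GF+MEV replicates 1 to 5 and at 749, 511, 785, 810 and 861 CPM in GF+PBS replicates 1 to 5. The groups were far apart. The coefficient of variation was 5.41% in GF+MEV and 18.3% in GF+PBS. In GF+PBS replicate 2 lay at 511 CPM and the other livers lay close together, between 749 and 861 CPM. The means were 1600 ± 86.6 CPM and 743 ± 136 CPM (SD, n = 5 each), a 2.15-fold higher level and a log2 difference of 1.11 (SE 0.14). It was 1.0 without GF+PBS replicate 2, the lowest liver.

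The receptor and its inhibitor were higher by similar amounts. The ratio of *Errfi1* to *Egfr* CPM was 2.40 ± 0.55 in GF+MEV and 2.26 ± 0.761 in GF+PBS (SD, n = 5 each). In GF+PBS replicates 1, 3, 4 and 5 the ratio was 2.56, 2.67, 2.59 and 2.57, and in replicate 2 it was 0.898, the only ratio below 1. These CPM are not divided by exon length. Per kilobase of exon *Errfi1* was above *Egfr* in every liver, at 143 or more against 50.2 or less in GF+PBS. In GF+MEV it was at 427 or more against 84.3 or less. The GF+MEV livers ran from 1.63 in replicate 5, the liver highest in *Egfr*, to 3.06 in replicate 1, the lowest in *Egfr*. As *Egfr* is the denominator and *Errfi1* varied little in GF+MEV (1530 to 1720 CPM), those ends follow largely from *Egfr* alone.

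The promoters of the 3 genes that were higher in GF+MEV, and of *Dusp6*, an ERK target with overlapping groups, are shown because the former were higher together and the latter was not. RefSeq windows on GRCm38.p6 matched 7 of the 10 listed genes, with 8 windows in all, and none was held for *Erbb3*, *Phlda1* or *Spry4*. Each sequence is the 250 bases before a RefSeq transcript start, 5′ to 3′ on the plus strand, at chr4:141300971-141301220 for *Epha2*, chr4:150854820-150855069 for *Errfi1*, chr11:16751953-16752202 for *Egfr* and chr10:99262981-99263230 for *Dusp6*. In the GENCODE annotation the *Errfi1* window lies inside the gene but outside its annotated exons, and the 3 others lie upstream of the gene. Capitals mark matches on either strand to the AP-1 motif TGANTCA, the CRE motif TGACGTCA, the ETS motif CCGGAAGT, the GC box GGGCGG and the TATA box TATAAA.
Epha2: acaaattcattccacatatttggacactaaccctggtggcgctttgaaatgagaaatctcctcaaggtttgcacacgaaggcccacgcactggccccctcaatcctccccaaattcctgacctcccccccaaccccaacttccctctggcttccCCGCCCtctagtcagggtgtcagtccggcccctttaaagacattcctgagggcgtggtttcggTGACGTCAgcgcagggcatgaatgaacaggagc
Errfi1: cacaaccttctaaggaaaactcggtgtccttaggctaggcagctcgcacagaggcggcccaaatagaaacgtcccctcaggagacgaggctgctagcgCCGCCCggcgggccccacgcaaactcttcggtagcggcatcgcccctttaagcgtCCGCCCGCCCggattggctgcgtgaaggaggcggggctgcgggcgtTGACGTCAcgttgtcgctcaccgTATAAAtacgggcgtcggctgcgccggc
Egfr: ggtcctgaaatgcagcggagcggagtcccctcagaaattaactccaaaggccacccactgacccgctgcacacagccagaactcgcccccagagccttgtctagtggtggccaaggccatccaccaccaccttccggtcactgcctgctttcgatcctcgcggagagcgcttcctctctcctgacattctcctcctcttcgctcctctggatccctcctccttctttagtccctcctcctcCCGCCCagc
Dusp6: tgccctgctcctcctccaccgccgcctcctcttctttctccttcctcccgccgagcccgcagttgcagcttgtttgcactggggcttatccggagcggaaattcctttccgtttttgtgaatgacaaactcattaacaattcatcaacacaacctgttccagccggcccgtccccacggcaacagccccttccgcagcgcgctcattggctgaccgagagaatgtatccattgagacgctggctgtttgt

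The CRE motif, the palindrome bound by CREB and ATF proteins, was found 33 bases before the start in *Epha2* and 51 bases before it in *Errfi1*, each time on a perfect match, and in none of the 6 other windows. One of these 6 is the second *Errfi1* window, at chr4:150853546-150853795 and wholly upstream of the annotated gene, which held none of the 5 motifs and is not printed. The CRE motif is held by 1.55% of all 32851 promoter windows of this length. *Egfr* held a GC box 9 bases before the start and *Dusp6* held none of the 5 motifs. *Errfi1* also held a TATA box 28 bases before the start, a motif in 12.37% of all windows, and 3 GC boxes of which the neighbouring pair overlap. GC boxes stand in 32.74% of all windows. No window of these genes held the AP-1 or ETS letters, which 6.75% and 2.88% of all windows hold. Such a match is a string of letters and not a measured site, and the motifs were picked with the expression results known.

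*Lrig1* (ENSMUSG00000030029, GRCm38 chr6:94604529-94700158, minus strand) encodes a membrane protein that promotes the breakdown of ErbB receptors. It lay between 28.6 and 43.6 CPM in GF+MEV livers and between 30.8 and 36.3 CPM in GF+PBS livers, so the GF+PBS range fell wholly within that of GF+MEV. The means were 37.1 ± 6.51 CPM and 34.3 ± 2.28 CPM (SD, n = 5 each), a log2 difference of 0.12 (SE 0.13). An overlap of 144 bp, 2.58% of its exon length, with *Slc25a26* on the other strand may alter its count in either direction, since the library kit does not mark strand.

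*Phlda1* (ENSMUSG00000020205, GRCm38 chr10:111506286-111508645, plus strand) encodes a pleckstrin homology-like domain protein that is induced by ERK signalling and has been linked to the restraint of ErbB receptors. It was at 3.42, 4.48, 2.22, 6.29 and 3.66 CPM in GF+MEV replicates 1 to 5. In GF+PBS replicates 1 to 5 it was at 40.6, 9.36, 31.8, 39.6 and 37.9 CPM. All GF+MEV livers were low and 4 GF+PBS livers lay close together at the top, while GF+PBS replicate 2 sat between, nearer to the GF+MEV livers.

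The means of *Phlda1* were 4.01 ± 1.51 CPM and 31.8 ± 13.0 CPM (SD, n = 5 each), a 7.98-fold higher level in GF+PBS and a log2 difference of -3.0 (SE 0.47). It was -3.23 without GF+PBS replicate 2 and -2.83 with the close GF+PBS pairs summed. The lowest library, GF+MEV replicate 3, held 46 counts (exact Poisson 95% interval 33.7 to 61.4) and GF+PBS replicate 2 held 167 (143 to 194), so the gap between those livers is beyond counting error, which is all these intervals cover. Of its exon length, 727 bp or 32.97% overlap Gm28592 on the other strand, and reads of the pair there cannot be told apart, since the library kit does not mark strand.

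Of the brakes on RAS and ERK, *Spry4* (ENSMUSG00000024427), a Sprouty gene induced by ERK that dampens RAS activation, was at 13.0, 11.4, 11.2, 13.4 and 13.9 CPM in GF+MEV replicates 1 to 5. In GF+PBS replicates 1 to 5 it was at 15.5, 16, 14, 20.6 and 20.9 CPM. The groups did not overlap, but GF+MEV replicate 5 and GF+PBS replicate 3 nearly touched, and GF+PBS replicates 4 and 5 stood above the rest of their group. The means were 12.6 ± 1.21 CPM and 17.4 ± 3.14 CPM (SD, n = 5 each), a 1.39-fold higher level in GF+PBS and a log2 difference of -0.47 (SE 0.13). It was -0.44 without GF+MEV replicate 2, -0.43 without GF+MEV replicate 3, -0.40 without GF+PBS replicate 4 or replicate 5, and -0.45 with the close GF+PBS pairs summed. In each of these fits the call was lost, a call that only describes a gene chosen on this contrast.

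*Dusp6* (ENSMUSG00000019960, GRCm38 chr10:99263231-99267489, plus strand) encodes the cytoplasmic phosphatase of ERK and is widely read as a marker of ERK activity. It was at 54.7, 39.3, 30.9, 39.3 and 51.7 CPM in GF+MEV replicates 1 to 5 and at 39.3, 58.3, 42.1, 46.6 and 49.7 CPM in GF+PBS replicates 1 to 5. The groups interleaved, with the highest liver in GF+PBS and the lowest in GF+MEV. The means were 43.2 ± 9.82 CPM and 47.2 ± 7.37 CPM (SD, n = 5 each), a log2 difference of -0.13 (SE 0.18).

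*Spred1* (ENSMUSG00000027351, GRCm38 chr2:117121374-117182279, plus strand) encodes a membrane protein that brings neurofibromin to RAS. It lay between 9.58 and 12.9 CPM in GF+MEV and between 11.6 and 15.2 CPM in GF+PBS, with means of 11.3 ± 1.41 CPM and 13.4 ± 1.31 CPM (SD, n = 5 each). The log2 fold change was -0.25 (SE 0.10), and 3 GF+MEV livers were below every GF+PBS liver while 2 lay in the overlap.

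**Figure D2:**
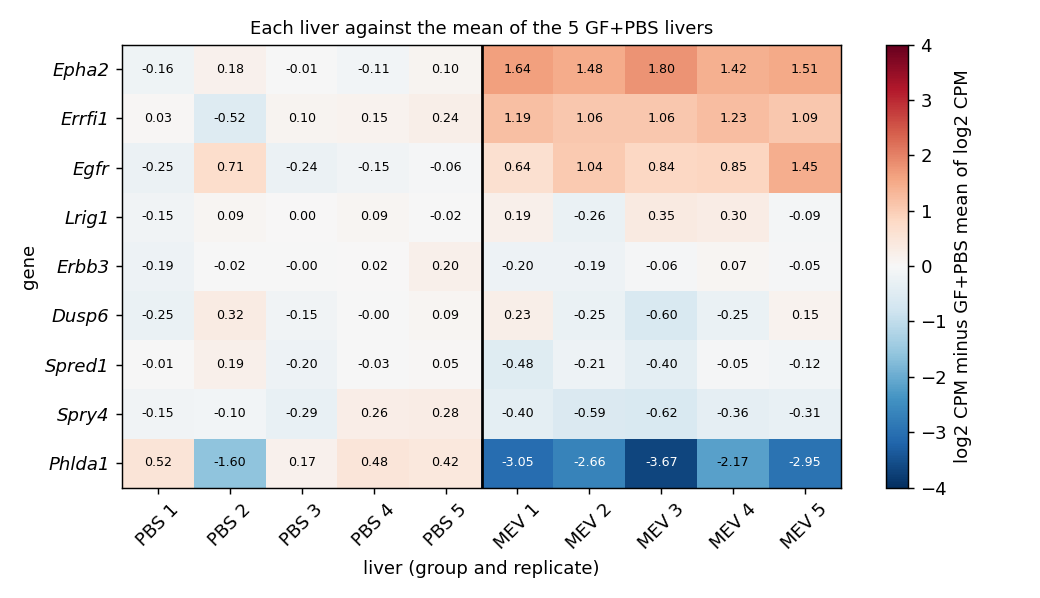
Difference of each liver's log2 CPM from the mean log2 CPM of the 5 GF+PBS livers, for 9 EGFR-ERK genes (y axis) in each liver (x axis, GF+PBS left of the black line and GF+MEV right of it), with color from -4 (blue) to 4 (red). *Epha2* runs from 1.42 to 1.80 and *Phlda1* from -3.67 to -2.17 in GF+MEV livers, and GF+PBS replicate 2 is at 0.71 for *Egfr*, -0.52 for *Errfi1* and -1.60 for *Phlda1*.

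GF+PBS replicate 2 stood apart from its group in several of these genes. Its *Egfr* was 1.84 times the mean of the 4 other GF+PBS livers (309 CPM). Its *Phlda1* was lower, with their mean of 37.5 CPM 4.0 times its level, and their mean of *Errfi1* (801 CPM) was 1.57 times its own. For *Egfr* and *Phlda1* this liver was displaced toward the GF+MEV livers, and for *Errfi1* away from them. It was also the highest GF+PBS liver in *Dusp6*, *Epha2* and *Spred1*, although its *Epha2* was only 1.16 times the mean of the others. With it left out, no log2 fold change of the 9 genes changed sign, and the values for *Epha2*, *Spry4*, *Spred1*, *Lrig1*, *Erbb3* and *Dusp6* were 1.62, -0.50, -0.20, 0.14, -0.09 and -0.04.

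Divided by exon length, the levels of the genes can be set roughly against each other, as TMM CPM per kilobase of exon. The length is that of all annotated exons of a gene joined, not of the transcripts used in liver, so the order of neighbours may depend on it. In GF+PBS livers *Errfi1* was highest with a mean of 208, followed by *Egfr* (31.8), *Erbb3* (27.2), *Dusp6* (15.1), *Phlda1* (14.4), *Lrig1* (6.14), *Spry4* (3.66), *Epha2* (2.64) and *Spred1* (1.97). The livers of *Egfr* and *Erbb3*, of *Dusp6* and *Phlda1*, of *Phlda1* and *Lrig1*, and of *Spry4* and *Epha2* overlapped on this scale. In GF+MEV livers the order of mean levels per kilobase was *Errfi1* (447), *Egfr* (61.2), *Erbb3* (25.6), *Dusp6* (13.8), *Epha2* (7.83), *Lrig1* (6.64), *Spry4* (2.64), *Phlda1* (1.82) and *Spred1* (1.66). *Epha2* and *Phlda1* thus traded the fifth and the eighth place. In GF+MEV the neighbours *Epha2* and *Lrig1*, *Spry4* and *Phlda1*, and *Phlda1* and *Spred1* overlapped.

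The rest of the pathway was read from 5 lists of other genes, 100 in all, of which 75 were tested. These lists were also written with earlier results of these livers known. The test called 6 of the 75 genes higher (8.0%) and 3 lower (4.0%), where it called 4.12% of all tested genes higher and 3.52% lower, and their median log2 fold change was 0.04 against -0.00 for all tested genes. Leaving out 1 liver at a time moved the count of higher calls between 4 and 8 and the count of lower calls between 0 and 3. No lower call was left without GF+MEV replicate 1 or without GF+MEV replicate 5, or with the close GF+PBS pairs summed.

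**Figure D3:**
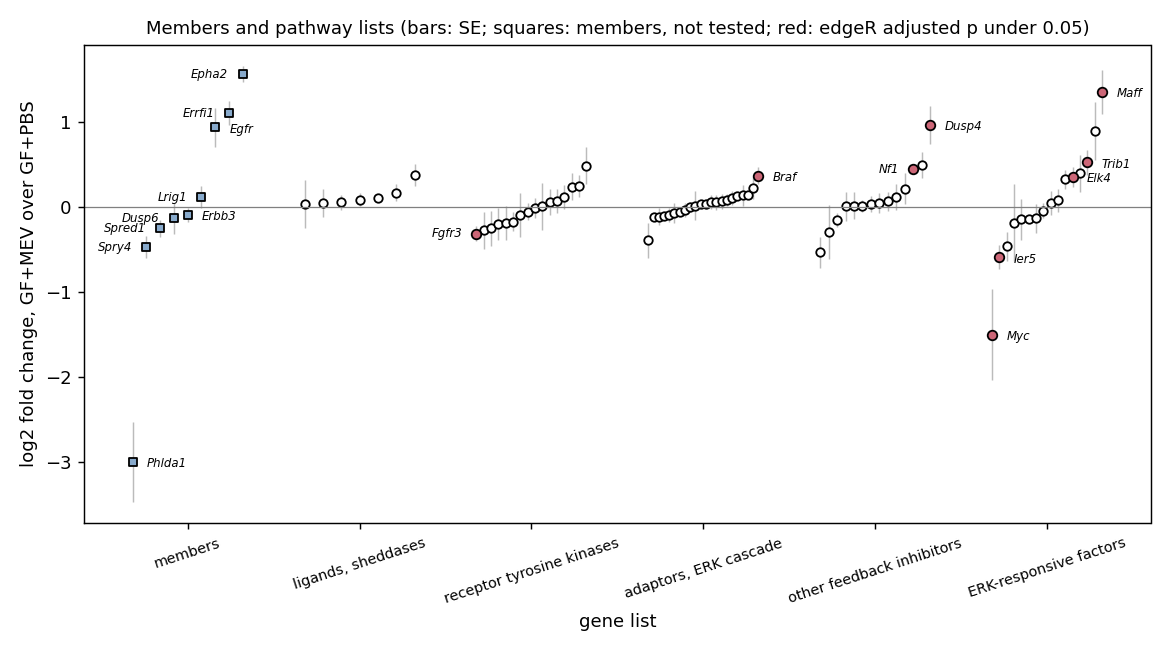
Log2 fold change of GF+MEV over GF+PBS (y axis, bars are standard errors) for the 9 EGFR-ERK genes (squares, left, no test) and the tested genes of 5 pathway lists (circles, sorted by value within a list, red where the edgeR adjusted p was under 0.05). The lists lie around 0, and the values farthest from it are those of *Phlda1* (-3.0), *Epha2* (1.57), *Myc* (-1.5) and *Maff* (1.36).

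Among the ligands of ErbB receptors and the sheddases that free them, 7 of 14 genes were tested and none was called. Their log2 fold changes ran from 0.04 to 0.38, with a median of 0.09. *Tgfa*, the ligand with the highest level, was at 27.1 ± 1.49 CPM in GF+MEV and 25.1 ± 1.31 CPM in GF+PBS (SD, n = 5 each; log2 fold change 0.11, edgeR adjusted p = 0.35). *Rhbdf2*, which encodes a partner of the sheddase ADAM17, was at 17.1 ± 2.75 CPM and 13.1 ± 1.5 CPM (log2 fold change 0.38, edgeR adjusted p = 0.061), and passed with DESeq2 or without GF+MEV replicate 4 or 5 or GF+PBS replicate 5.

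Among other receptor tyrosine kinases, 16 of 20 were tested, 1 was called lower and none higher, with a median log2 fold change of -0.03. *Fgfr3*, a fibroblast growth factor receptor, fell from 43.5 ± 2.81 CPM to 35.0 ± 4.17 CPM (SD, n = 5 each; log2 fold change -0.31, SE 0.09, edgeR adjusted p = 0.031), although the groups overlapped. The call held in 10 of 18 alternatives and was lost, at an edgeR adjusted p of up to 0.097, without GF+MEV replicate 1, 4 or 5 or GF+PBS replicate 2, 3, 4 or 5 and with the close pairs summed. Its exons overlap G630022F23Rik on the other strand over 998 bp. The insulin receptor gene *Insr* had the highest level of the list, at 137 ± 9.93 CPM and 115 ± 20.9 CPM (edgeR adjusted p = 0.18, and 0.041 without GF+PBS replicate 5), and the hepatocyte growth factor receptor gene *Met* was at 75.2 ± 6.97 CPM and 71.9 ± 14 CPM (edgeR adjusted p = 0.81).

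All 22 genes of the adaptors and the ERK cascade were tested. One RAF kinase gene, *Braf*, rose from 15.5 ± 2.06 to 20 ± 1.7 CPM (SD, n = 5 each; log2 fold change 0.37, SE 0.10, edgeR adjusted p = 0.032), with a single GF+MEV liver inside the GF+PBS range. The call held in 10 of 18 alternatives and was lost, at an edgeR adjusted p of up to 0.085, without GF+MEV replicate 2, 3, 4 or 5 or GF+PBS replicate 1, 3 or 4 and with the close pairs summed. The 21 others were not called, and the median of the list was 0.04. The ERK1 gene *Mapk3* was at 36.1 ± 2.8 CPM in GF+MEV and 38.9 ± 1.45 CPM in GF+PBS, with a log2 difference of -0.10 (SE 0.05, edgeR adjusted p = 0.39). The MEK2 gene *Map2k2* had the highest level of the list, at 160 and 165 CPM on average (edgeR adjusted p = 0.69).

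Of 20 other feedback inhibitors, 14 were tested, 2 were called higher and none lower. *Dusp4*, which encodes a nuclear ERK phosphatase, was at 5.0, 3.24, 5.26, 8.25 and 5.27 CPM in GF+MEV replicates 1 to 5 and at 2.44, 2.86, 2.50, 3.28 and 2.76 CPM in GF+PBS replicates 1 to 5. It rose by 0.97 on the log2 scale (SE 0.22, edgeR adjusted p = 0.0092), with GF+MEV replicate 2 just inside the GF+PBS range. *Nf1*, which encodes the RAS inactivator neurofibromin, rose from 16.8 ± 0.591 to 22.9 ± 1.82 CPM (SD, n = 5 each) without overlap, a log2 difference of 0.45 (SE 0.05, edgeR adjusted p = 0.0013). Both calls held in all 18 alternatives.

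Other members of the Sprouty and DUSP families did not pass the test. *Spry1* was at 5.39 ± 0.89 CPM in GF+MEV and 3.79 ± 0.566 CPM in GF+PBS (log2 fold change 0.50, edgeR adjusted p = 0.058), a sign opposite to that of *Spry4*. Of the *Spry1* exon length, 24.43% overlaps Gm42922 on the other strand. *Dusp7*, which encodes a cytoplasmic ERK phosphatase related to that of *Dusp6*, was at 3.63 ± 0.918 CPM and 5.23 ± 0.766 CPM (log2 fold change -0.53, edgeR adjusted p = 0.083). Each passed under 2 of the 18 alternatives, DESeq2 and the fit without GF+MEV replicate 3. *Ptprj*, a receptor phosphatase gene, had the highest level of this list and a log2 difference of 0.12 (edgeR adjusted p = 0.62).

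Of 24 transcription factors and targets known to respond to ERK, 16 were tested, 3 were called higher and 2 lower, with a median log2 fold change of 0.00. *Maff*, a small MAF transcription factor gene, rose from 10 ± 3.81 to 25.8 ± 4.03 CPM (SD, n = 5 each) without overlap, a log2 difference of 1.36 (SE 0.26, edgeR adjusted p = 0.00063). *Trib1*, which encodes a pseudokinase that directs C/EBP-alpha to breakdown, rose from 48.1 ± 8.13 to 69.4 ± 10.9 CPM without overlap, a log2 difference of 0.53 (SE 0.15, edgeR adjusted p = 0.016). These calls held in all 18 alternatives, while that of the ETS factor gene *Elk4* (log2 fold change 0.36, SE 0.12, edgeR adjusted p = 0.048) held in 6 and was lost, at an edgeR adjusted p of up to 0.10, without any 1 of the livers except GF+PBS replicate 5, with upper-quartile scaling, with the replicate block and with the close pairs summed. *Mcl1*, a survival gene of the BCL2 family, had the highest level of the list and a log2 difference of -0.14 (edgeR adjusted p = 0.20).

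The genes called lower on that list were less stable. *Myc*, the growth transcription factor gene, lay between 2.99 and 6.01 CPM in GF+MEV livers and was at 7.33, 3.19, 7.97, 21.9 and 19.9 CPM in GF+PBS replicates 1 to 5. Its high values came from GF+PBS replicates 4 and 5, the pair that lay closest over the most variable genes, and replicate 2 was again within the GF+MEV range. It fell by 1.5 on the log2 scale (SE 0.54, edgeR adjusted p = 0.041), a call kept in 10 of 18 alternatives and lost, at an adjusted p of up to 0.17, with the close pairs summed, by limma-voom, and without GF+MEV replicate 1, 2, 3 or 5 or GF+PBS replicate 4 or 5. *Ier5*, an immediate early gene, fell from 5.13 ± 0.40 CPM to 3.38 ± 0.744 CPM (SD, n = 5 each; log2 fold change -0.59, SE 0.14, edgeR adjusted p = 0.025) without overlap, and its call held in 13 of 18 alternatives. It was lost, at an edgeR adjusted p of up to 0.077, without GF+MEV replicate 1, 4 or 5 or GF+PBS replicate 3 and with the close pairs summed.

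Genes widely read as output of ERK are set side by side here as a description. *Spry4* was lower and *Dusp6* had overlapping groups, but both are on the list drawn up with this contrast known. So are the ERK-induced genes *Epha2* (higher) and *Phlda1* (lower). The *Spry4* call was lost in 5 of 18 alternatives. Outside that list *Dusp4* rose. *Egr1* had overlapping groups, at 9.54 ± 2.44 CPM in GF+MEV and 10.8 ± 5.13 CPM in GF+PBS (SD, n = 5 each, log2 fold change -0.18, edgeR adjusted p = 0.80). *Etv5*, an ETS factor gene also read as ERK output, was at 4.91 ± 0.902 CPM and 6.79 ± 1.11 CPM (log2 fold change -0.46, edgeR adjusted p = 0.083), and was called lower by DESeq2 (adjusted p = 0.047). *Ccnd1*, the cyclin D1 gene, had a log2 difference of -0.14 (edgeR adjusted p = 0.75), and 23.36% of its exon length overlaps LTO1 on the other strand.

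The spread among livers of the same group was examined separately, as the deviation of log2 CPM from the mean of a liver's own group, a comparison chosen after the values were seen that does not use the difference between groups. Over 36 pairs of the 9 genes, 3 had an unadjusted p under 0.05 for Pearson's r, and none of the 36 passed after adjustment. *Epha2* and *Phlda1* varied in opposite directions, with r = -0.79 (exact two-sided permutation within groups over 14400 orders, p = 0.0015, adjusted p = 0.055, n = 10) and Spearman's rho = -0.95 (exact permutation p = 0.0013, adjusted p = 0.045). Without the 2 livers farthest from the median of *Epha2*, GF+MEV replicate 3 and GF+PBS replicate 2, and with the group means of all 5 livers, r was -0.56. Without GF+PBS replicate 2 alone, r was -0.83. *Errfi1* and *Phlda1* had r = 0.87 (exact permutation p = 0.031, adjusted p = 0.46, n = 10) but rho = 0.30 (exact permutation p = 0.46, adjusted p = 0.92). For this pair r was 0.42 without GF+PBS replicate 2, so its size depended much on that liver. Without the 2 livers farthest in *Errfi1*, GF+PBS replicates 2 and 5, r was 0.61. *Egfr* and *Spred1* had r = 0.70 (exact permutation p = 0.038, adjusted p = 0.46, n = 10) and rho = 0.70 (exact permutation p = 0.052, adjusted p = 0.65). Without the 2 livers farthest in *Egfr*, again with the group means of all 5 livers, r was 0.59. These tests take the 10 livers as separate samples, which the close GF+PBS pairs leave in doubt. As the comparison was also chosen after the values were seen, the p-values are a description and cannot establish a relation between any 2 of these genes.

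**Figure D4:**
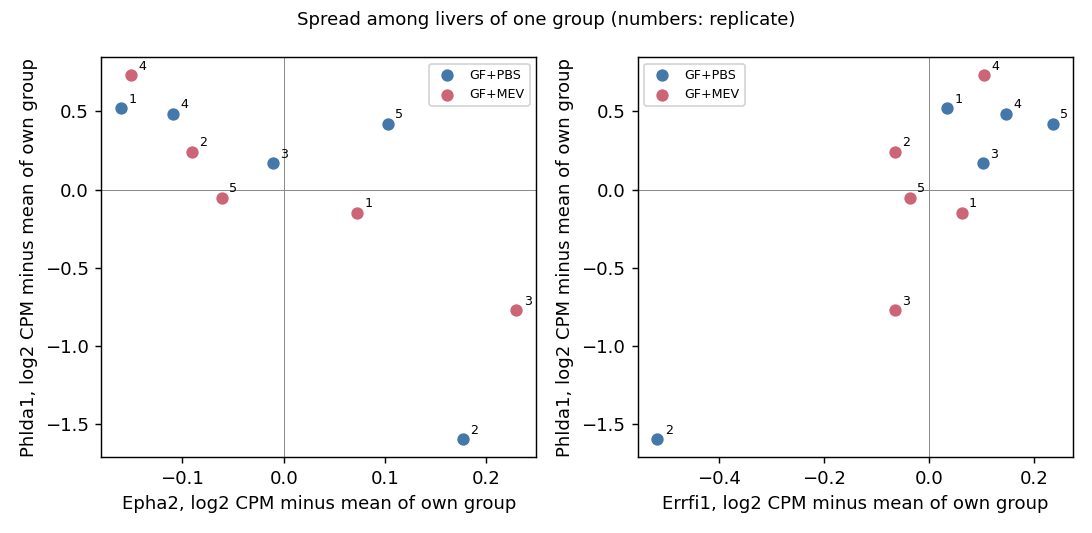
Deviation of log2 CPM from the mean of a liver's own group, *Phlda1* (y axis) against *Epha2* (left) and *Errfi1* (right), 1 point per liver with its replicate number, GF+PBS in blue and GF+MEV in red. On the left the points fall from upper left to lower right in both groups (r = -0.79), and on the right GF+PBS replicate 2 lies alone at the lower left (r = 0.87 with it and 0.42 without it).

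The genes most like *Phlda1* and *Dusp6* by the same deviations were sought among 11834 genes whose mean was 1 CPM or more. For *Phlda1* over 10 livers these were Gm14305 (r = 0.922), *Zfp202* (0.912), Gm42547 (0.912), *Iqcb1* (0.912) and *Gadd45g* (0.909). None of them was among the 5 most alike once GF+PBS replicate 2 was left out, which gave *Ankrd13c* (0.960), *Slc25a17* (0.950), *Ddx10* (0.947), *Fbxw7* (0.944) and *Arl6ip6* (0.933). In *Gadd45g*, a stress-inducible growth arrest gene, GF+PBS replicate 2 was at 5.04 CPM and the other GF+PBS livers between 34.8 and 55.2 CPM, yet its difference between the groups ran opposite to that of *Phlda1* (log2 fold change 2.08, edgeR adjusted p = 0.0034).

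For *Dusp6* the 5 genes were *Zscan21* (r = 0.938), *Map4k1* (0.927), *Fitm2* (0.919), *Rwdd4a* (0.913) and 4632415L05Rik (0.908). *Zscan21* and *Rwdd4a* were again among the 5 most alike without GF+PBS replicate 2 (0.922 and 0.921), with *Tcp11l2* (0.949), *Bbox1* (0.933) and *Cyp2b9* (0.929). With 10 points and this many genes, such values of r are the top of a long ranking and are given as a description.

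The tissue label was checked with marker lists of liver cell types. All 8 hepatocyte markers were tested and summed to between 104000 and 123000 CPM in GF+MEV and between 101000 and 117000 CPM in GF+PBS. The sums of 8 stellate cell markers (176 to 251 and 204 to 230 CPM), of 8 endothelial markers (150 to 240 and 192 to 250 CPM) and of 8 Kupffer cell markers (197 to 396 and 239 to 348 CPM) overlapped between the groups. No tested marker was at 0 in any library. The most abundant of each list had log2 differences of -0.03 (*Alb*), -0.05 (*Dcn*), -0.25 (*Eng*) and -0.29 (*Cd5l*), none of them called.

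Cholangiocyte and leukocyte markers shifted with the groups in some genes. The 4 tested cholangiocyte markers of 8 summed to between 44.6 and 96.3 CPM in GF+MEV and between 41.2 and 50.2 CPM in GF+PBS, and only *Krt19*, a bile duct keratin gene, was called, from 0.56 ± 0.19 CPM to 8.2 ± 5.8 CPM (SD, n = 5 each; edgeR adjusted p = 0.00063). *Spp1* and *Sox9* were not called and differed in sign (log2 fold changes 0.52 and -0.98), and *Krt7*, *Epcam*, *Cftr* and *Cldn7* were not analysed here. The 4 tested leukocyte markers of 10 summed to between 8.21 and 15.5 CPM and between 13.5 and 16.4 CPM, with the B cell genes *Cd79a* (log2 fold change -0.87, edgeR adjusted p = 0.0071) and *Cd79b* (-0.76, edgeR adjusted p = 0.032) lower. *Ptprc*, the most abundant of the 4, was not called (log2 fold change -0.23, edgeR adjusted p = 0.62). Of the endothelial markers *Lyve1* was called higher (log2 fold change 0.84, edgeR adjusted p = 0.040) and *Clec4g* lower (-0.48, edgeR adjusted p = 0.021), and of the hepatocyte markers *Cps1*, *Tat* and *Ass1* were called higher (0.38, 2.10 and 0.36). The part of these shifts in the levels of the EGFR-ERK genes was not tested.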

How the data were processed

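Liver RNA of 10 germ-free mice was analysed, 5 given MEV and 5 given PBS. Per the labels, libraries were made with the NEBNext Ultra RNA kit, which does not mark strand, and they were sequenced on a HiSeq. The authors demultiplexed with bcl2fastq 2.17, aligned reads to GRCm38 with STAR 2.7.3a, counted them with HTSeq, left out genes with fewer than 20 counts, and deposited the counts per Ensembl gene, not normalized. The HTSeq version, annotation and strand setting are not given in the sources used here. A further 5 columns matched no described sample and were not used. Symbols and positions came from GENCODE M21, and 10 identifiers had no symbol.

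Genes with at least 20 counts over the 10 libraries were tested with edgeR 4.0.16 in R 4.3.3 (TMM, quasi-likelihood test on the treatment group, Benjamini-Hochberg adjustment over 12147 genes, threshold 0.05). Standard errors were computed on log2 CPM (prior count 2). P-values measure the spread between livers, taken as separate mice of a single experiment. On simulated counts for 12147 genes with 200 changed by 1 on the log2 scale, edgeR found 183 with 7 false calls, DESeq2 1.42.0 found 187 with 20, and limma 3.58.1 (voom) found 182 with 7.

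The EGFR-ERK genes, the pathway and marker lists and the motifs were chosen with earlier results of these data known. Named were the 10 listed genes, every called gene and the most abundant gene of each list, and the 5 genes most like *Phlda1* and *Dusp6*. Genes not called but named for a family or an ERK readout were chosen after their values were seen. Alternatives were limma-voom, the Wald test of DESeq2, 2 further scalings, a filter removed or raised to 10 counts in each library, replicate number as a block, summed close GF+PBS pairs, and leaving out each liver.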

Additional observations from a re-analysis of the deposited data

Results flagged for a closer look

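Among the EGFR-ERK genes and the genes named from the pathway and marker lists, 76 sets of 5 livers were checked for a liver far from its group, and 4 were found where chance would give 3.80. In *Egfr*, GF+PBS replicate 2 was at 568 CPM and the other GF+PBS livers at 293 to 335 CPM (gap 0.848 of the range, critical value 0.71). In *Phlda1* the same liver was at 9.36 CPM and the others at 31.8 to 40.6 CPM (0.718). GF+MEV replicate 2 was the distant liver in *Elk4*, at 46.1 CPM against 36.4 to 38.4 CPM (0.794), and in *Spp1*, an osteopontin gene of bile duct cells and macrophages, at 61.1 CPM against 25.7 to 33.9 CPM (0.769).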

How the results depend on the processing

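Of 162 values for the 9 EGFR-ERK genes under 18 alternatives, none changed sign. The call was lost in 6, 5 of them for *Spry4* (close GF+PBS pairs summed, or without GF+MEV replicate 2 or 3 or GF+PBS replicate 4 or 5) and 1 for *Egfr* (pairs summed). As the 9 genes were chosen on this contrast, calls kept or lost among them are a description. Over all genes, 928 were called, of which 53.9% were higher, and leaving out 1 liver gave 696 to 926. Upper-quartile scaling called 1040, of which 41.2% were higher, and moved the median log2 fold change of all genes to -0.05, under 0.1. DESeq2 called 1201 genes and, of the 75 pathway genes, 8 higher and 5 lower. With GF+PBS replicates 1 and 3, and 4 and 5, summed, 561 genes were called (352 higher and 209 lower), with 4 pathway genes higher and 0 lower, and limma-voom called 2 lower. Leaving out 1 liver gave 4 to 8 higher and 0 to 3 lower. The causes were not tested.

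Replicate numbers did not pair the livers, with correlations of the deviations of same-numbered livers of 0.128, -0.051, -0.151, -0.139 and 0.141 over 500 genes and 2 of 10 livers closest to their own number. The replicate block gave 792 called genes and 5 pathway genes higher and 3 lower. Among the 9 EGFR-ERK genes, *Phlda1* had the lowest count in any library, 46, and among other called genes *Krt19*, *Cd79a*, *Cd79b*, *Ier5* and *Dusp4* went down to 6, 14, 15, 41 and 42.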
